A study of Mus musculus with 22 samples.

Results

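Expression of 8 genes that encode transcription factors of epithelial-to-mesenchymal transition was described across mouse mammary cell cultures, the allografts grown from such cells, and primary mammary cancers with their cultures. The 8 genes were taken by name: Snai1, Snai2, Twist1, Twist2, Zeb1, Zeb2, Prrx1 and Foxc2. They are 8 of 23993 gene symbols in a first table of 16 libraries and 8 of 23490 in a second table of 6 libraries, and all 8 were present in both. The study compared an epithelial cell medium (EpiC) with conditional reprogramming (CRC), a culture method that usually pairs a kinase inhibitor with fibroblast feeders. RNA was sequenced from poly(A) libraries, 22 in all, and values are given as FPKM, fragment counts divided by transcript length and library size, so levels of different genes can be set side by side.

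All cells came from nulliparous female C57Bl/6 mice that carried MMTV-Cre and 1 mutant Trp53 allele (Trp53-/+), controls included, so no group has wild-type Trp53. The genotype called CYP19A1 here is Tet-op-CYP19A1MMTV-rtTA/p53-/+/MMTV-Cre, in which the MMTV promoter, active mainly in mammary epithelium, drives both rtTA and Cre. The genotype Brca1het is Brca1fl 11/WT with MMTV-Cre and Trp53-/+, and Brca1hom is Brca1fl11/fl11 with the same other alleles. CRC and EpiC cultures of the first table were numbered 1 (CYP19A1), 2 (Brca1het) and 3 (Brca1hom), 1 library each. Allografts were grown in mammary glands of NU (NCr)-Foxn1nu hosts, which lack mature T cells but keep other stroma and myeloid cells. The 7 CRC allografts were 6C (CYP19A1), 10B, 10C and 11C (Brca1het), and 1, 2 and 12 (Brca1hom). The 3 EpiC allografts were 7B (CYP19A1), 4C and 5A (Brca1het). The second table held primary cancers 1 and 2 and a CRC and an EpiC culture of each, all Brca1het. Their titles begin with a shared number, followed by a letter that differs between the cancers. Whether both cancers came from the same mouse is not in the labels. The 3 first-table cultures of each medium differ in genotype, so they stem from different mice. With 1 library per genotype and medium, their spread mixes technical spread with differences of the medium effect between genotypes. Whether other libraries of the same group and genotype stem from different mice or dishes is not in the labels. The p-values therefore reflect library-to-library spread, which may be technical among those libraries.

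In epithelial-to-mesenchymal transition, cells lose junctions and apical polarity and take up a motile, matrix-producing state, as happens in gastrulation, in neural crest and in some carcinoma cells. The zinc finger proteins Snai1, Snai2, Zeb1 and Zeb2 bind E-box sequences in the promoters of epithelial genes such as Cdh1 and repress them, while the bHLH proteins Twist1 and Twist2, the homeodomain protein Prrx1 and the forkhead protein Foxc2 act mainly on mesenchymal programmes. The same genes are normally active in fibroblasts, and Zeb2 also in macrophages, while Snai2 is a known gene of basal mammary epithelium.

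To show the sequence that the zinc finger members recognise, the 6-base E-box CAGGTG, which reads as CACCTG on the opposite strand, was looked for in the 250 bases before each gene's start in RefSeq promoters of build GRCm38.p6. The windows below were chosen because they hold the motif and overlap no exon annotated on the gene's strand. They come from Snai1 itself and from 4 epithelial junction or surface genes. Capitals mark the E-box on either strand, and each sequence is written 5′ to 3′ on the gene's strand and ends at the base before the start.
Snai1: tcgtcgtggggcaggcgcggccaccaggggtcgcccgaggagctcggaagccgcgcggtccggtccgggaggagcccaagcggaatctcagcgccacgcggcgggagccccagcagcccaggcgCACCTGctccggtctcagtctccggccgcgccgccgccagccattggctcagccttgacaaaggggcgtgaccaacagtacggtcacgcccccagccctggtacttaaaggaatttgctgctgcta
Epcam: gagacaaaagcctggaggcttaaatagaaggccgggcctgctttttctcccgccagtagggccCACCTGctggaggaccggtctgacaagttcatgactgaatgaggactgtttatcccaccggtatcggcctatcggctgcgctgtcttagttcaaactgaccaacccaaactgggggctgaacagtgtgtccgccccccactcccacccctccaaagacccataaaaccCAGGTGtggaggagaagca
Cldn4: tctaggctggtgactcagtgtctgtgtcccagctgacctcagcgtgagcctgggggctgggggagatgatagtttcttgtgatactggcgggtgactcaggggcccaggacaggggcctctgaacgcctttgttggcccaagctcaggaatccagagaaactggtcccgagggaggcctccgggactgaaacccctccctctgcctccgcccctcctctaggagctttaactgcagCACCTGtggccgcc
Muc1: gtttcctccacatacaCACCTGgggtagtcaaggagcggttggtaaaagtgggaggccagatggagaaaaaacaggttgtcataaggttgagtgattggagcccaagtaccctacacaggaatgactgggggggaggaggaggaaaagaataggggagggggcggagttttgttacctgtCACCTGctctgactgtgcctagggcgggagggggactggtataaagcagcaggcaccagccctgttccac
Tjp3: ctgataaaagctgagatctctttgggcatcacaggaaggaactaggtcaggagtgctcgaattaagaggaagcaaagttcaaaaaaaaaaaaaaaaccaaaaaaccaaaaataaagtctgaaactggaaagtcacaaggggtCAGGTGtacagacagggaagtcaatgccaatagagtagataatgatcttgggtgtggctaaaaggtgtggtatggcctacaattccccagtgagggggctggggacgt
The Snai1 window lies at chr2:167537945-167538194 (plus strand), with its E-box beginning 126 bases before the start. Epcam, an epithelial adhesion molecule (chr17:87635729-87635978, plus strand), holds 2 E-boxes, at 187 and 19 bases. Cldn4, a tight junction claudin (chr5:134946935-134947184, minus strand), holds 1 at 14 bases. Muc1, an apical mucin (chr3:89228806-89229055, plus strand), holds 2, at 234 and 70 bases. Tjp3, a tight junction scaffold (chr10:81291582-81291831, minus strand), holds 1 at 108 bases. Among 17 epithelial junction and keratin genes, 13 had a RefSeq promoter and 9 of these (69.2%) held an E-box. None of 11 mesenchymal product genes with a promoter did (0 of 11), against 19.4% of all 27025 genes and 17.2% of 32851 promoters. Of the members, 5 had a promoter entry, and 1 of these, Snai1, held an E-box. A match is a description of letters, not a bound site.

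FPKM sums ran from 466400 to 825200 in the first table, and from 607500 to 1616000 in the second, where the CRC culture of cancer 2 had the highest. Brca1, the conditional gene, lay at 2.02 to 5.61 FPKM in Brca1het and 2.39 to 5.26 in Brca1hom libraries of the first table, and a gene-level value does not show the recombined part. Epithelial identity was checked with the 17 junction and keratin genes, whose log2(FPKM + 1), averaged over the list, lay at 5.44 to 6.04 in the CRC libraries, 5.10 and 5.46 in EpiC cultures 2 and 1, and 0.56 in EpiC culture 3. EpiC culture 3 thus lacked the epithelial markers that its label implies, and its 9 fibroblast markers had the highest sum (3843 FPKM) of any culture. In allografts the same epithelial mean was 0.86 to 3.08 (CRC) and 1.89 to 1.97 (EpiC). CRC allografts 10B and 10C, the only allografts whose titles share a number, stood apart from the others in Snai1.

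In the 6 cultures of the first table, 7 of the 8 genes were lower in CRC than in EpiC medium and Snai2 was the exception. Prrx1, a mesenchymal homeobox gene, showed the largest difference on the log2 scale. The limma model with genotype called these 7 lower and none higher, at an adjusted p under 0.05 over all 11837 genes tested. By the same rule 23.2% of all genes tested were called, made up of 11.4% higher and 11.7% lower. Of the members, 7 of the 8 did not overlap between the media against 50.4% of all genes, and the median log2 difference was −2.94 over the 8 genes against 0.04 over all genes. In bulk RNA, fewer cells of a type and less RNA per cell cannot be told apart.

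**Figure D1:**
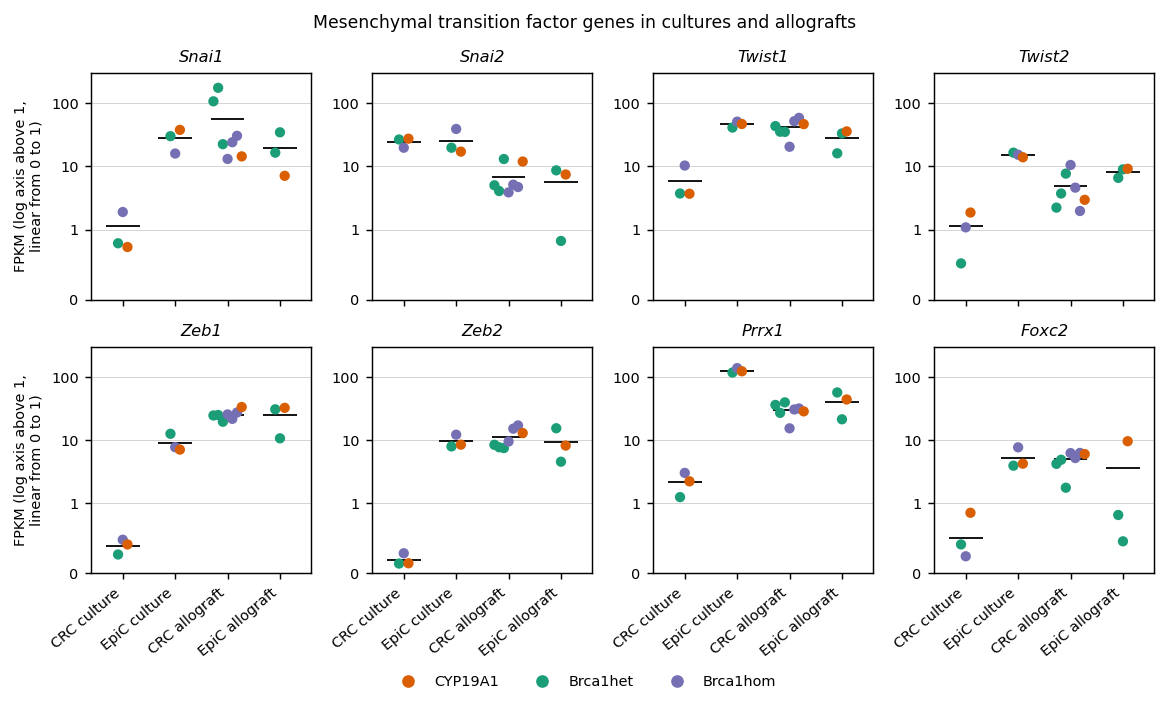
FPKM of the 8 genes (vertical axis, logarithmic above 1 and linear from 0 to 1) in CRC cultures, EpiC cultures, CRC allografts and EpiC allografts (n = 3, 3, 7 and 3 libraries). Each point is a library coloured by genotype and each line is a group mean. Except for Snai2, the lowest group mean of each gene is that of the CRC cultures, and Snai2 is higher in all cultures than in all allografts.

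Snai1 stood at 0.751, 0.805 and 1.90 FPKM in CRC cultures 1, 2 and 3, and at 38.0, 30.2 and 16.02 FPKM in the EpiC cultures of the same genotypes. The groups were far apart, with the highest CRC value below the lowest EpiC value (13.1-fold on the FPKM + 1 scale, log2 difference −3.71, SE 0.42, limma adjusted p = 0.0126). Snai2, its paralogue, stood at 27.5, 26.7 and 19.8 FPKM in CRC cultures 1 to 3 and at 17.2, 19.8 and 39.3 FPKM in EpiC cultures. These ranges overlapped, and culture 3 was the lowest of the CRC and the highest of the EpiC libraries. The log2 difference of Snai2 was 0.04 (SE 0.36, 95% interval −0.93 to 1.01, limma adjusted p = 0.948), which leaves room for about a 2-fold difference either way. In FPKM, Snai1 was 0.0273 to 0.0959 times Snai2 in the CRC libraries and 0.408 to 2.21 times Snai2 in the EpiC libraries.

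Twist1, a bHLH factor of mesoderm and neural crest, stood at 3.69, 3.73 and 10.3 FPKM in CRC cultures 1 to 3 and at 47.0, 41.3 and 51.3 FPKM in EpiC cultures (log2 difference −2.91, SE 0.28, limma adjusted p = 0.00989). Twist2 stood at 1.86, 0.517 and 1.08 FPKM against 13.99, 16.5 and 15.3 FPKM (log2 difference −2.96, SE 0.28, limma adjusted p = 0.0097). For both genes every EpiC culture was above every CRC culture, and the EpiC values of Twist2 lay within a narrow range.

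Zeb1 stood at 0.412, 0.269 and 0.480 FPKM in CRC cultures 1 to 3 and at 7.07, 12.6 and 7.73 FPKM in EpiC cultures (log2 difference −2.83, SE 0.27, limma adjusted p = 0.00979). Zeb2 was the lowest of the 8 in CRC cultures 1 and 2, with 0.144, 0.140 and 0.287 FPKM in CRC against 8.47, 7.95 and 12.2 FPKM in EpiC cultures (log2 difference −3.13, SE 0.20, limma adjusted p = 0.00491). Both ZEB genes were under 0.5 FPKM in every CRC culture. At such levels the scale of log2(FPKM + 1) understates the ratio.

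Prrx1 stood at 2.22, 1.25 and 3.02 FPKM in CRC cultures 1 to 3 and at 123, 118 and 138 FPKM in EpiC cultures, a 41.3-fold difference on the FPKM + 1 scale (log2 −5.37, SE 0.19, limma adjusted p = 0.00171). It was the highest of the 8 in each EpiC culture, where it made up 47.1% to 48.1% of their summed FPKM. Foxc2, a factor of mesenchyme and lymphatic vessels, stood at 0.864, 0.413 and 0.244 FPKM against 4.24, 3.94 and 7.69 FPKM (log2 difference −2.03, SE 0.33, limma adjusted p = 0.0232). It was the lowest of the 8 in each EpiC culture.

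The order of the 8 genes therefore differed between the media. In every CRC culture Snai2 was the highest, with 53.3% to 79.0% of the summed FPKM, followed by Twist1. Added up, the 8 genes gave 33.9 to 37.5 FPKM in CRC and 250.2 to 288 FPKM in EpiC cultures. Among EpiC cultures Twist1 came second after Prrx1 in each library without overlap between them, whereas Snai1 and Snai2 overlapped each other, as did Zeb1 and Zeb2.

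Without EpiC culture 3, which lacked epithelial markers, 7 genes were again called lower, where 17.2% of all genes were called, and the log2 differences of Snai1 and Snai2 were −4.29 and 0.53. The count was 4 when CRC culture 1 was left out (4.77% of all genes), 5 when EpiC culture 1 was (5.67%), and 1 when either culture 2 was. In the last 2 fits Prrx1 was the gene still called, and 1.34% and 1.42% of all genes were called. With genotype in the model, leaving out a culture also removes the information in the other culture of that genotype. The 9 fibroblast markers summed to 73.3 to 90.6 FPKM in CRC and 645 to 3843 in EpiC cultures, with 8 of 9 lower in CRC. The 8 basal or myoepithelial markers summed to 11640 to 15760 FPKM in CRC and 10.65 to 377 in EpiC cultures, with 6 of 7 tested higher in CRC (median log2 difference 6.99). The part of either list in the result was not tested.

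Genes of the same pathway were read from lists chosen with earlier results of these data known. Among all genes tested between the cultures, 11.4% were called higher and 11.7% lower in CRC. Of 17 tested mesenchymal products 13 were lower in CRC cultures and none was higher (median log2 difference −4.35), among them Sparc, a matrix protein gene (519 ± 180 against 1741 ± 253 FPKM, SD, n = 3 each), and S100a4, a motility-linked calcium-binding protein gene (94.7 ± 15.9 against 2076 ± 1036). Among the other mesenchymal transcription factors 6 of 14 were lower, such as Prrx2, the paralogue of Prrx1 (4.33 ± 2.25 against 22.5 ± 0.898), and Tcf4 (7.70 ± 1.78 against 23.0 ± 4.24). Inducing signals and receptors were mixed, with 2 higher and 3 lower of 19, the latter including the PDGF receptor genes Pdgfra (2.02 ± 0.776 against 112 ± 67.7 FPKM) and Pdgfrb (0.315 ± 0.0496 against 57.1 ± 10.7). Of 12 epithelial transcription factors 7 were higher in CRC, including Trp63, a basal epithelial factor (50.1 ± 24.0 against 7.68 ± 6.17 FPKM), and Klf5 (34.1 ± 7.75 against 5.08 ± 4.13). Junction and keratin genes were called in 3 of 17 cases, all higher in CRC, and the desmosome genes Dsp (198 ± 19.2 against 6.39 ± 5.74 FPKM) and Jup (163 ± 21.3 against 26.0 ± 20.2) were among them. Only 1 of 19 partners and inhibitors was called, the polycomb gene Suz12 (33.0 ± 3.87 against 19.7 ± 3.10).

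Of the genes whose promoters are printed above, Tjp3 was higher in CRC than EpiC cultures (6.05 ± 2.02 against 0.720 ± 0.663 FPKM, n = 3 each). Muc1 went the other way, with a lower mean FPKM in CRC than in EpiC cultures, and was not called. Epcam stood at 261 ± 6.87 against 246 ± 229 FPKM and Cldn4 at 142 ± 14.4 against 86.9 ± 75.8, neither of them called, and in EpiC culture 3 they were at 0.208 and 0.0685 FPKM. High Zeb1, Twist1 and Prrx1 thus occurred in EpiC libraries both with and without epithelial gene expression.

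**Figure D2:**
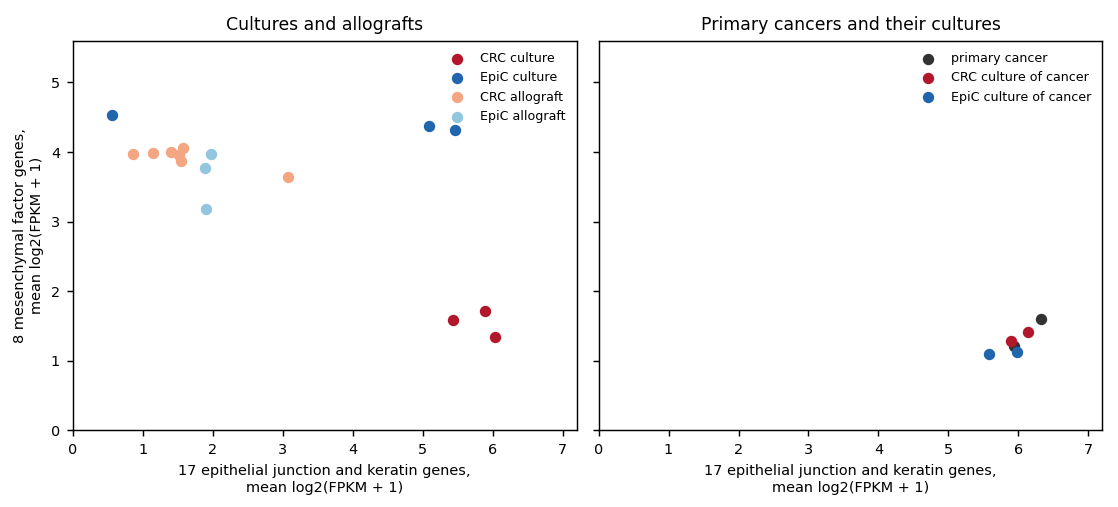
Mean log2(FPKM + 1) of the 8 factor genes (vertical axis) against that of 17 epithelial junction and keratin genes (horizontal axis), with 1 point per library, cultures and allografts on the left and primary cancers and their cultures on the right. The 3 EpiC cultures have similar factor levels while their epithelial levels run from 0.56 to 5.46; the 2 tables were normalised separately, so the panels are not compared.

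In CRC allografts, relative to CRC cultures, 7 of the 8 genes were higher and Snai2 was lower. All 8 were called by limma in the 16-library model with genotype, and the groups of none of the 8 overlapped. This background was large: 39.6% of 12325 genes were called (21.2% higher and 18.4% lower) and 41% did not overlap. The median log2 difference of the 8 genes was 3 against 0.04 for all genes. Markers of some other cell types, given below, moved as well.

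Snai1 ran from 13.2 to 176 FPKM with a median of 24.2 over the 7 CRC allografts, against at most 1.90 FPKM in CRC cultures. All 7 were above all 3 cultures (log2 difference 3.995, SE 0.62, limma adjusted p = 0.000169). Without CRC allografts 10B and 10C the difference was 3.32 (limma adjusted p = 0.000175), a choice made after seeing the data. Snai2 went the other way, from 19.8 to 27.5 FPKM in CRC cultures to 3.88 to 13.1 FPKM with a median of 5.03 in CRC allografts (log2 difference −1.75, SE 0.49, limma adjusted p = 0.0123). That call was lost without CRC culture 2 (limma adjusted p = 0.0731, log2 −1.60). The ratio of Snai1 to Snai2 was above 1 in every CRC allograft (1.21 to 43.2), and below 0.1 in every CRC culture.

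Zeb1 showed the largest rise of the 8, from at most 0.480 FPKM in CRC cultures to 19.6 to 33.5 FPKM (median 24.997) in CRC allografts (log2 difference 4.28, SE 0.30, limma adjusted p = 1.16e-07). Zeb2 ran from 7.48 to 17.1 FPKM with a median of 9.51 in CRC allografts (log2 difference 3.29, SE 0.30, limma adjusted p = 1.26e-06). The spread of Zeb1 over the 7 allografts was small beside its distance from the cultures.

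Twist1 ran from 20.5 to 58.9 FPKM with a median of 43.6 in CRC allografts (log2 difference 2.70, SE 0.35, limma adjusted p = 3.56e-05). Twist2 ran from 1.97 to 10.6 FPKM with a median of 3.72, and its lowest allograft was just above its highest CRC culture, at 1.86 (log2 difference 1.32, SE 0.39, limma adjusted p = 0.0153). The call was lost without CRC culture 2 (limma adjusted p = 0.109) or CRC culture 3 (0.0811). Prrx1 ran from 15.4 to 39.7 FPKM with a median of 30.6 (log2 difference 3.29, SE 0.33, limma adjusted p = 3.31e-06). Foxc2 ran from 1.76 to 6.26 FPKM with a median of 5.20 (log2 difference 2.07, SE 0.40, limma adjusted p = 0.000997). Each was higher in all 7 allografts than in all 3 cultures.

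Relative to EpiC cultures, EpiC allografts showed 1 of the 8 genes higher and 2 lower, where 14.2% of all genes were called (7.94% higher and 6.26% lower). The groups did not overlap for 4 of the 8 genes, against 28.6% of all genes. Zeb1 was 10.7, 30.8 and 32.5 FPKM in EpiC allografts 5A, 4C and 7B, and the lowest of these lay within the culture range of 7.07 to 12.6 FPKM (log2 difference 1.25, SE 0.36, limma adjusted p = 0.0351). Without a filter on low genes its adjusted p was 0.051, and the call was lost in 5 of 16 fits that left out a library. Prrx1 was 21.4, 56.9 and 44.1 FPKM in 5A, 4C and 7B, all below the 118 to 138 FPKM of EpiC cultures (log2 difference −1.72, SE 0.39, limma adjusted p = 0.0104). Snai2 was 0.838, 8.67 and 7.46 FPKM in the same 3 allografts, all below the cultures (log2 difference −2.25, SE 0.59, limma adjusted p = 0.0231). Snai2 lost its call in 3 such fits, without EpiC culture 2 (limma adjusted p = 0.068), EpiC culture 3 (0.0657) or EpiC allograft 5A (0.0515, log2 −1.54). Without EpiC culture 3 the count fell from 3 to 1, with Prrx1 the gene still called, where 12.9% of all genes were called.

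The other 5 genes were not called between EpiC allografts and cultures. Snai1 stood at 34.8, 16.5 and 7.11 FPKM in EpiC allografts 5A, 4C and 7B, overlapping the cultures (log2 difference −1.06, 95% interval −2.65 to 0.53). Twist1 stood at 33.3, 16.2 and 35.9 FPKM (log2 −0.63, interval −1.52 to 0.27) and Twist2 at 8.99, 6.59 and 9.19 FPKM (log2 −0.76, interval −1.76 to 0.24), below every EpiC culture in both cases. Zeb2 stood at 4.55, 15.4 and 8.21 FPKM (log2 0.04, interval −0.72 to 0.81). Foxc2 was spread widest, at 0.457, 0.833 and 9.61 FPKM (log2 −0.75, interval −1.78 to 0.28), and without EpiC allograft 7B it was called lower (log2 −1.58, limma adjusted p = 0.0228).

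**Figure D3:**
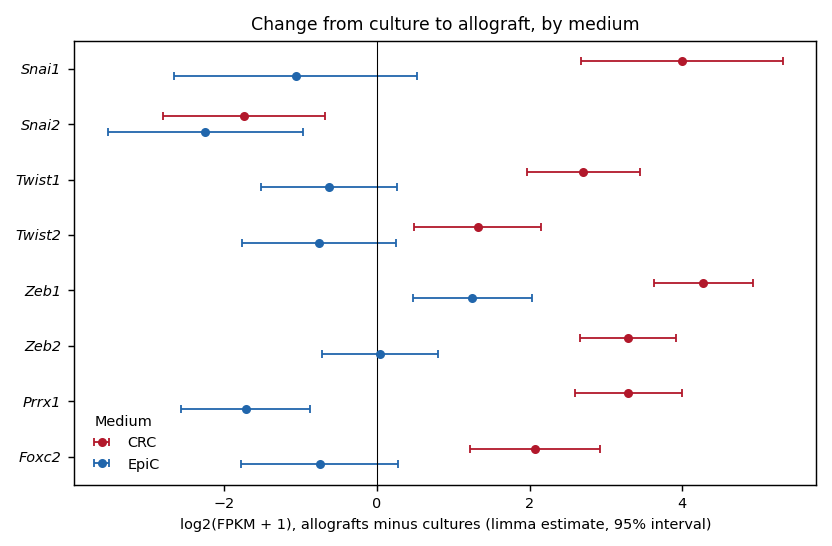
Difference in log2(FPKM + 1) between allografts and cultures (horizontal axis, limma estimate with its 95% interval) for each of the 8 genes, separately for CRC (red, 7 allografts and 3 cultures) and EpiC (blue, 3 allografts and 3 cultures). The intervals of 7 genes lie above 0 for CRC and to the right of those for EpiC, while both intervals of Snai2 lie below 0.

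The difference between the 2 changes was tested as an interaction in the same model, which shares all 16 libraries with the comparisons above. It was called for 7 of the 8 genes, all with a larger change in CRC, where 12.2% of all genes were called and 6.35% in that direction. Snai1 had a difference of 5.06 (SE 0.96, limma adjusted p = 0.00375) and Prrx1 of 5.01 (SE 0.51, limma adjusted p = 2.97e-05) on the log2 scale. Without CRC allografts 10B and 10C the difference was 4.08 for Snai1 (limma adjusted p = 0.00436) and 4.93 for Prrx1 (0.000379), so that Prrx1 came first. Twist1 (3.33), Zeb2 (3.25), Zeb1 (3.03), Foxc2 (2.82) and Twist2 (2.08) followed. Twist2 had the weakest support (SE 0.61, limma adjusted p = 0.0396) and lost its call in 10 of 16 fits that left out a library, while Foxc2 lost it in 1, without CRC culture 3 (limma adjusted p = 0.059). Snai2 fell in both media, and its difference of 0.50 (95% interval −1.16 to 2.17, limma adjusted p = 0.734) was not called. The interaction reads the same 6 cultures as the comparison of media above.

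Markers of some other cell types moved with the allografts, and those of others did not. The 10 macrophage markers summed to 4579 to 14820 FPKM in the 10 allografts and 7.47 to 55.4 in the 6 cultures, and all 10 were called higher in both media. The 8 endothelial markers summed to 70.5 to 197 FPKM in allografts and 1.89 to 27.7 in cultures. Fibroblast markers summed to 620 to 2080 FPKM in CRC allografts and 546 to 3416 in EpiC allografts, and 7 of 9 were called higher in CRC allografts than in CRC cultures. In EpiC allografts none of 9 was higher and 2 were lower than in EpiC cultures (median log2 difference −1.26). Of 6 pericyte and smooth muscle markers tested, 3 were higher and 1 lower in CRC allografts, and 1 higher and 2 lower in EpiC allografts. None of 7 skeletal muscle and 4 adipocyte markers tested was called in either medium. Basal or myoepithelial markers summed to 5.63 to 142 FPKM in CRC and 13.5 to 51.3 in EpiC allografts. Of these, 7 of 7 tested were lower in CRC allografts than in CRC cultures (median log2 difference −7.59), as was Snai2. Between EpiC allografts and cultures 1 of 7 was lower (median log2 difference −0.52), while Snai2 was called lower there too. In the interaction 5 of 7 were lower, while Snai2 was not called. The part of these cells in the levels of the 8 genes was not tested.

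The pathway lists moved as follows between CRC allografts and CRC cultures, where 21.2% of all genes were called higher and 18.4% lower. Mesenchymal products were higher in 15 of 18 cases, such as Vim (vimentin, 2169 ± 569 against 249 ± 111 FPKM, SD, n = 7 and 3) and S100a4 (1241 ± 72.5 against 94.7 ± 15.9). Junction and keratin genes were lower in 13 of 17 cases, such as Epcam (4.54 ± 9.32 against 261 ± 6.87 FPKM) and Krt19 (3.44 ± 2.31 against 100.3 ± 79.6), as were Cldn4 (2.04 ± 4.33 against 142 ± 14.4) and Tjp3 (0.202 ± 0.163 against 6.05 ± 2.02). Muc1, whose promoter also held 2 E-boxes, was not called (0.564 ± 0.304 against 0.416 ± 0.289 FPKM). Epithelial transcription factors were lower in 10 of 12 cases, such as Ehf (0.410 ± 0.884 against 48.8 ± 21.7) and Trp63 (0.171 ± 0.147 against 50.1 ± 24.0). Other mesenchymal transcription factors were higher in 6 and lower in 2 of 14 cases, with the chromatin protein gene Hmga2 at 66.1 ± 30.5 against 15.6 ± 2.17 FPKM and the HMG-box gene Sox9 lower, at 23.9 ± 9.63 against 44.8 ± 18.4. Inducing signals and receptors were higher in 7 and lower in 3 of 19 cases, with the TGF-beta receptor gene Tgfbr2 at 94.8 ± 30.1 against 56.1 ± 13.6 FPKM and Hif1a lower, at 52.9 ± 14.1 against 101 ± 35.2. Among 19 partners and inhibitors 1 was higher, the corepressor gene Ctbp1 (81.5 ± 21.0 against 40.6 ± 7.67), and 6 were lower, including the kinase gene Csnk2a1 (16.2 ± 4.28 against 35.9 ± 3.89).

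Between EpiC allografts and EpiC cultures 7.94% of all genes were called higher and 6.26% lower. There 4 of 18 mesenchymal products were lower, including the collagen genes Col1a1 (103 ± 67.3 against 1027 ± 391 FPKM, n = 3 each) and Col1a2 (203 ± 277 against 1319 ± 221). Junction and keratin genes were lower in 5 of 17 cases and epithelial transcription factors in 3 of 12, Krt19 (10.2 ± 0.714 against 186 ± 153 FPKM) and Ehf (0.303 ± 0.192 against 9.21 ± 5.87) among them. Both called genes among 14 other mesenchymal transcription factors were higher, namely Hmga2 (118 ± 76.8 against 24.2 ± 18.1 FPKM) and Sox9 (42.6 ± 13.7 against 18.8 ± 2.46). Sox9 thus went in opposite directions in the 2 media, and its interaction was called (log2 −2.23, SE 0.48, limma adjusted p = 0.00829). Of the partners and inhibitors 3 of 19 were lower, among them Id3, an inhibitor of bHLH factors (12.8 ± 5.20 against 155 ± 38.8 FPKM), whose interaction was also called (log2 3.57, SE 0.77, limma adjusted p = 0.00779).

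Between CRC and EpiC allografts none of the 8 genes was called by limma with genotype in the model, and 1 (Snai1) had an unadjusted p under 0.05. The test made 1 call among 11999 genes (0.00833%), so it separated few genes of any kind. The groups overlapped for all 8 genes, while 2.38% of all genes did not overlap. For Snai1 the log2 difference was 1.42 (95% interval 0.0064 to 2.82, limma adjusted p = 0.591), and 0.35 without 10B and 10C. The intervals of Zeb1 (−0.50 to 0.97), Zeb2 (−0.74 to 0.94) and Prrx1 (−1.07 to 0.65) leave room for differences of up to about 2-fold. Those of Snai2 (−0.43 to 1.98), Twist1 (−0.28 to 1.46), Twist2 (−2.02 to 0.12) and Foxc2 (−0.10 to 1.76) were wider. The difference of Foxc2 was 0.83, and 0.18 without 10B and 10C.

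Genotype was compared among allografts. Between Brca1hom and Brca1het CRC allografts (n = 3 each) limma called none of the 8 genes, and none (0%) of 11928 genes. At an unadjusted p under 0.05 there were 2 members. Snai1 stood at 13.2, 24.2 and 30.6 FPKM in Brca1hom and at 22.5, 108 and 176 FPKM in Brca1het allografts (log2 difference −1.78, SE 0.72, limma adjusted p = 0.459), and the difference was −0.070 without 10B and 10C. Zeb2 stood at 9.51, 15.2 and 17.1 FPKM in Brca1hom against 7.48, 7.71 and 8.44 FPKM in Brca1het allografts, without overlap (log2 difference 0.71, SE 0.25, limma adjusted p = 0.412). Foxc2 did not overlap either, at 5.20, 6.23 and 6.26 against 1.76, 4.21 and 4.88 FPKM (log2 difference 0.65, limma adjusted p = 0.503), and 19.4% of all genes did not overlap in this comparison. Twist1, Twist2 and Zeb1 had log2 differences of 0.07, 0.18 and 0.11. Without 10B and 10C, which leaves 1 Brca1het allograft, the difference was −1.35 for Snai2 (−0.44 with them), 1.32 for Foxc2 and −0.59 for Twist2.

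Between CYP19A1 (n = 2) and Brca1het (n = 5) allografts, with medium in the model, limma again called none of the 8 and none (0%) of 11965 genes, while Snai1 and Foxc2 had an unadjusted p under 0.05. Snai1 stood at 14.4 and 7.11 FPKM in CYP19A1 allografts 6C and 7B and at 16.5 to 176 FPKM with a median of 34.8 in Brca1het allografts (log2 difference −1.99, SE 0.72, limma adjusted p = 0.617), and the difference was −1.19 without 10B and 10C. Foxc2 stood at 6.01 and 9.61 FPKM in CYP19A1 and at 0.457, 0.833, 1.76, 4.21 and 4.88 FPKM in Brca1het allografts (log2 difference 1.63, SE 0.51, limma adjusted p = 0.617). That of Foxc2 rested on the 2 CYP19A1 libraries unequally, at 0.68 without EpiC allograft 7B and 2.70 without CRC allograft 6C. Zeb1 did not overlap either, so that 3 of the 8 genes and 12.8% of all genes were without overlap.

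The highest Snai1 values of the first table belonged to CRC allografts 10B (108 FPKM) and 10C (176 FPKM), while the other 8 allografts lay between 7.11 and 34.8 FPKM. In these 2 libraries Snai1 was the highest of the 8 genes, with 46.4% and 62.0% of their summed FPKM, and in the other CRC allografts that place was held by Twist1, Zeb1 or Prrx1. The CRC culture of the same genotype had 0.805 FPKM. The other members did not stand apart there, with Snai2 at 5.03 and 4.08 FPKM, Zeb1 at 24.6 and 24.997, and Twist1 at 43.6 and 35.5.

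The 3 genes whose log2 values followed Snai1 best over the 10 allografts were Ddx27 (Pearson r = 0.962), Zswim1 (0.955) and Mybl2 (0.952), and all 3 lie on chromosome 2, as does Snai1. Without 10B and 10C these correlations were 0.826, 0.762 and 0.847 over 8 allografts. The tested protein-coding genes around Snai1 were therefore read in chromosomal order, a step chosen after these values were seen. Rnf114, the nearest on one side, stood at 185 and 153 FPKM in 10B and 10C and at 16.1 to 43.6 FPKM in the other 8 allografts. Ube2v1, the nearest on the other side, stood at 74.7 and 81.3 FPKM against 12.5 to 32.1 FPKM. The next gene beyond it, Tmem189, stood at 20.6 and 30.4 FPKM, within the 12.7 to 59.1 FPKM of the others.

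Both 10B and 10C exceeded all other allografts in 7 of the 10 nearest genes on the Rnf114 side (Rnf114, Spata2, Slc9a8, Znfx1, Ddx27, Stau1 and Cse1l) and in 1 of the 10 nearest on the Ube2v1 side. Out to 40 genes the counts were 22 of 40 and 3 of 40. The same held for 9.28% of 873 protein-coding genes on chromosome 2 and for 3.28% of all 11998 genes. Genes of one region share these libraries, DNA was not measured, and the cause was not tested.

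**Figure D4:**
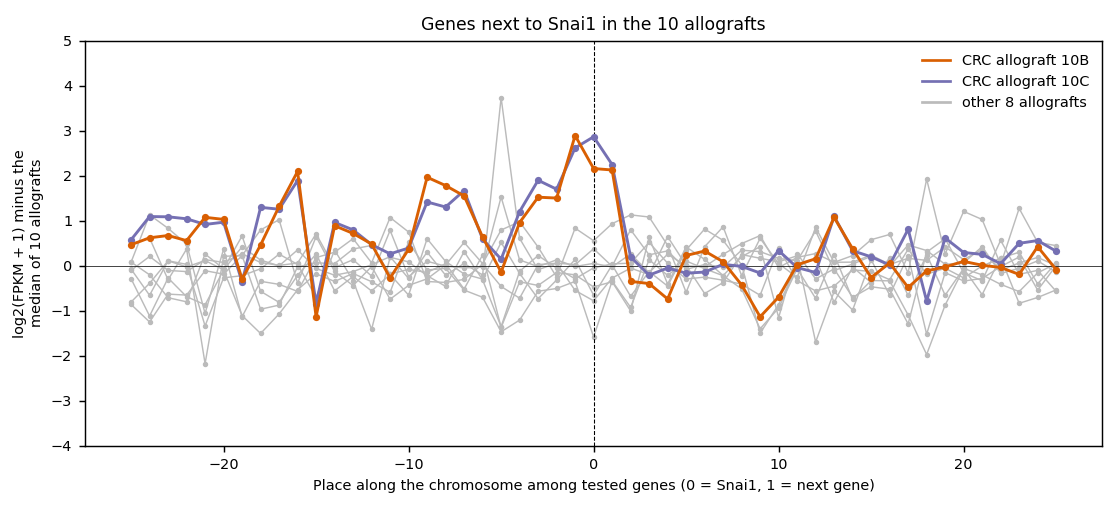
Level of each tested protein-coding gene relative to its median over 10 allografts (vertical axis, log2(FPKM + 1) minus the median) against its place along the chromosome counted from Snai1 at 0 (horizontal axis, negative on the Rnf114 side). CRC allografts 10B (orange) and 10C (purple) rise above the other 8 (grey) at Snai1, Ube2v1 and many genes on the negative side. At no place from 2 to 10 do both exceed all others, and they do so again at places 13 and 14 (Fam210b and Aurka).

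For the other members, the genes with the most similar pattern over the 10 allografts were read in the same way, as a description over libraries that share host tissue. Snai2 was followed by Abhd17c (r = 0.966), Fkbp9 (0.953) and Usp39 (0.94), and Twist1 by Lrrn3 (0.973), which lies on its own chromosome, Iqcc (0.936) and Pogk (0.935). The pattern of Twist2 was most like those of Gstt1 (0.96), Erbb2 (0.959), which encodes a receptor tyrosine kinase, and Rhou (0.944). Zeb1 was followed by Usp47 (0.965), Taf4b (0.96) and Zfp532 (0.956), of which Taf4b and Zfp532 lie on its own chromosome, and Zeb2 by Osbpl11 (0.941), Stard4 (0.937) and Mycn (0.925). Prrx1 was followed by Plekha8 (0.949), Elovl5 (0.944) and 5730455P16Rik (0.891). For Foxc2 they were Cog6 (0.96), Pip5k1a (0.955) and Npnt (0.946), all 3 on chromosome 3 while Foxc2 lies on chromosome 8. Between members the highest correlation was 0.702 (Snai2 with Zeb1, Spearman rho 0.345) and the lowest −0.662 (Twist1 with Twist2, rho −0.697). CRC allograft 1 had the highest Twist2 and lowest Twist1 of the CRC allografts (10.6 and 20.5 FPKM), and CRC allograft 2 the reverse (1.97 and 58.9 FPKM). Among the 3 EpiC allografts 4C was the lowest in both genes.

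In the primary cancers and their cultures the summed FPKM of the 8 genes was 13.3 to 30.5. These values came from a table normalised separately, and 23 of its 48 member values have more than 6 digits, 22 of them ending in 5, as a mean of 2 values would. They are not compared in level with those above. Snai1 stood at 9.76 and 13.1 FPKM in cancers 1 and 2, at 18.6 and 4.99 FPKM in their CRC cultures, and at 10.4 and 4.53 FPKM in their EpiC cultures. It was the highest of the 8 in 5 of the 6 libraries, the exception being the CRC culture of cancer 2, where Twist1 was higher (5.62 FPKM). Prrx1 came second in both cancers, with 2.16 and 11.4 FPKM, against 1.66 and 1.21 FPKM in CRC and 1.86 and 2.12 FPKM in EpiC cultures.

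Twist1 stood at 1.12 and 1.23 FPKM in cancers 1 and 2 and at 2.18 and 5.62 FPKM in their CRC cultures, while it was listed at 0 in the EpiC culture of cancer 1 and stood at 0.233 FPKM in that of cancer 2. The CRC cultures were thus above the EpiC cultures for both cancers, the opposite order to the first table. The log2 difference between the kinds of culture was 2.05 (SE 0.60, limma adjusted p = 1). Twist2 stood at 0.131 and 0.379 FPKM in the cancers, 1.47 and 2.95 FPKM in CRC cultures, and 0.0444 and 3.60 FPKM in EpiC cultures. For Twist2 the EpiC cultures lay on either side of both CRC values.

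Snai2 stood at 0.803 and 0.329 FPKM in the cancers, 0.660 and 4.19 FPKM in CRC cultures, and 2.45 and 2.31 FPKM in EpiC cultures. Zeb1 stood at 1.04 and 1.44 FPKM in the cancers, 0.555 and 0.0782 FPKM in CRC cultures and 1.89 and 0.288 FPKM in EpiC cultures. Zeb2 was above 1 FPKM only in the cancers themselves (1.27 and 2.41 FPKM), and at most 0.255 FPKM in their 4 cultures. Foxc2 was at or below 0.285 FPKM in all 6 libraries. The macrophage markers, at 1157 to 1678 FPKM in the cancers and 9.56 to 37.0 in their cultures, had the same order as Zeb2. So did endothelial markers (62.7 to 64.9 against 1.44 to 8.86 FPKM) and fibroblast markers (139 to 167 against 40.2 to 64.8). Pericyte, lymphocyte and adipocyte markers shared this order, whereas skeletal muscle, basal and luminal markers overlapped between cancers and cultures. The part of these cells in the level of Zeb2 was not tested.

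**Figure D5:**
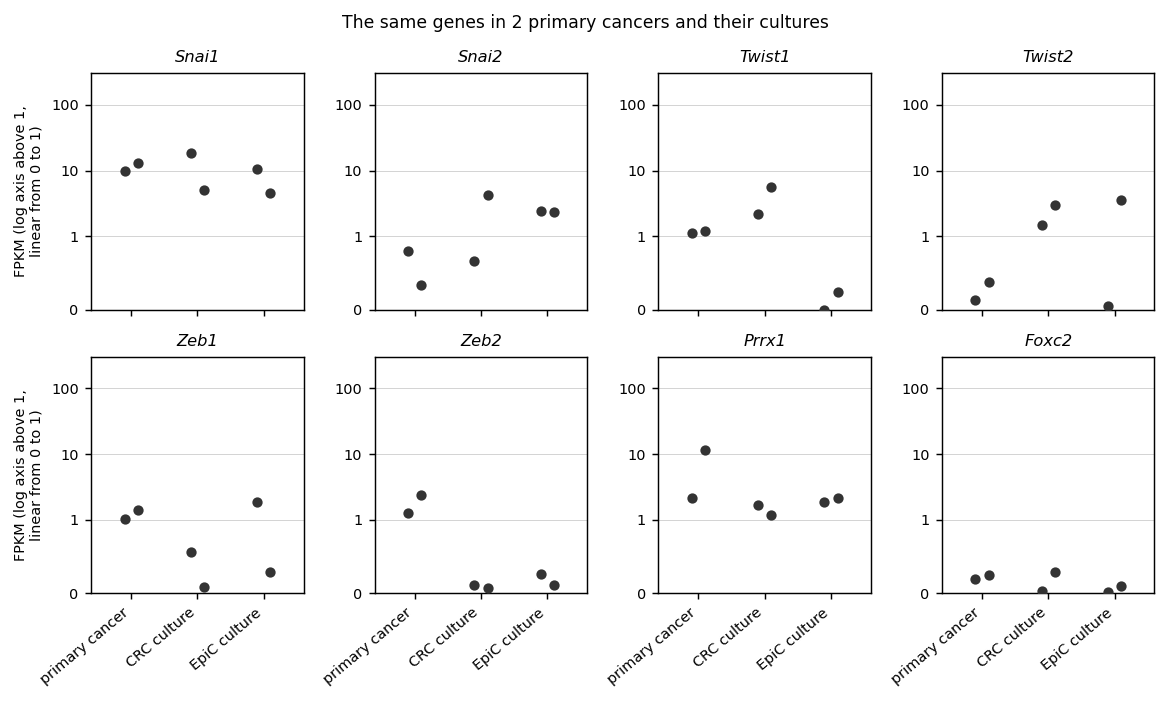
FPKM of the 8 genes (vertical axis, logarithmic above 1 and linear from 0 to 1) in 2 primary cancers, their CRC cultures and their EpiC cultures, 1 point per library, from the separately normalised second table. Snai1 lies between 4.53 and 18.6 FPKM in all 6 libraries, and Foxc2 stays below 0.3.

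Of the 8 genes 5 passed the filter at a mean of 1 FPKM in these 6 libraries, and Zeb1, Zeb2 and Foxc2 did not. Limma called 0 of these 5 between CRC cultures and cancers, between EpiC cultures and cancers, and between CRC and EpiC cultures, where it called 0.889%, 0.677% and 0.00815% of 12266 genes. Of the 109 genes behind the first share, 58 were lower in the CRC cultures (0.473% of all tested). Without regard to a test, the 2 libraries a group did not overlap for 3, 3 and 2 of the 5 genes in these comparisons, against 29.4%, 38.7% and 26.2% of all genes. Unadjusted p-values under 0.05 were found for 0, 0 and 1 of the 5 (Twist1 in the last). For Snai1 the intervals were −1.96 to 1.59 for CRC cultures against cancers and −2.40 to 1.14 for EpiC cultures against cancers on the log2 scale, so that 2 libraries a group could not resolve a 2-fold difference.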

How the data were processed

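RNA-seq values of 22 libraries in 7 groups were read from 2 tables. The authors deposited FPKM per gene in both, and per the submitters' processing notes FastQC, Trim Galore, TopHat and Cufflinks were used with the mouse build mm9. The versions, the annotation and the strand setting were not given in the sources used here. Read depth is unknown. Low values of the same gene were divided by those in CRC allograft 10C. In the first table the most frequent ratio ran from 0.973 (CRC allograft 1) to 4.41 (CRC culture 3). That ratio held only 14.7% of 1613 genes in CRC allograft 1 and 6.86% of 729 genes in CRC culture 3. Of 135 library pairs compared within tables, 0 were identical.

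Values were tested as log2(FPKM + 1), where the pseudocount of 1 understates changes of low genes. A gene entered a fit when its FPKM averaged 1 or more over that fit's libraries. Models were fitted with limma 3.58.1 in R 4.3.3 with an abundance trend and genotype or medium as a covariate, and p-values were adjusted over all genes tested by Benjamini-Hochberg. A gene was called at an adjusted p under 0.05, and 10 comparisons were made. The code was tested on simulated data. The simulations did not cover the difference of changes between media, EpiC cultures of cancers against cancers, or CRC against EpiC cultures of cancers. Alternatives were another pseudocount (0.1), other filters (none, 5 FPKM), rescaling by median ratios, other covariates, pooling of models, a block for cancer, 10B and 10C averaged, and each library left out.

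The 8 members and the pathway and marker lists were chosen with earlier results of these data known. Besides the members, up to 2 called genes with the highest mean FPKM were named per list and comparison, and the 3 genes most correlated with each member over the 10 allografts. Tjp3, Cldn4 and Muc1, the genes around Snai1, and list genes named outside that rule were chosen after their values were seen. Titles pair the cancers with their cultures by number. Over genes, libraries with the same number had correlations, after subtraction of each group's mean, of −0.0555 (cancers with CRC cultures), −0.113 (cancers with EpiC cultures) and 0.242 (CRC with EpiC cultures). Promoter sequences come from RefSeq (GRCm38.p6), another build than that of the values, so no expression value was placed by coordinate. Overlap with exons on the gene's own strand was checked in the GENCODE annotation of GRCm38, and exons on the opposite strand were not checked. The order of genes along chromosomes was read from a RefSeq gene table.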

Additional observations from a re-analysis of the deposited data

Results flagged for a closer look

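For 7 of the 8 genes the change from culture to allograft differed between CRC and EpiC, by a test of that difference in limma. The test reads the same cultures as the comparison of media, where the same 7 genes were called lower in CRC. It is therefore not separate from that result, and none of the 8 genes was called between CRC and EpiC allografts. On the log2 scale the change in CRC was larger by 5.06 for Snai1, 5.01 for Prrx1, 3.33 for Twist1, 3.25 for Zeb2, 3.03 for Zeb1, 2.82 for Foxc2 and 2.08 for Twist2. Without CRC allografts 10B and 10C it was 4.08 for Snai1 and 4.93 for Prrx1, and Twist2 was no longer called (limma adjusted p = 0.0591). The same test on all libraries called 12.2% of all genes. Fibroblast markers moved with these genes, with 7 of 9 called in the same direction, 5 of 7 basal or myoepithelial markers were called in the opposite direction, and none of the 10 macrophage markers was called. Their part in the result was not tested.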

How the results depend on the processing

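Over all members, comparisons and alternatives, 1043 single-gene values kept direction and status (called or not called), 43 lost a call, 1 gained one and 35 changed sign. The 1043 include values that were not called in either fit, so they do not show how often calls were kept. With a filter at 5 FPKM, 4 of the 5 members tested were called between CRC and EpiC cultures, where 24.9% of all genes were called. Leaving out 1 library at a time gave 1 to 7 calls between CRC and EpiC cultures (1.34% to 17.7% of all genes), 6 to 8 between CRC allografts and CRC cultures (26.5% to 45.4%), 1 to 3 between EpiC allografts and EpiC cultures (8.08% to 17.8%), and 5 to 7 for the difference of these changes (6.18% to 18.2%). Without a filter, adjusted p-values by limma were 0.0524 for Foxc2 between cultures, 0.051 for Zeb1 between EpiC allografts and cultures, and 0.0685 for Twist2 in the difference of changes. With CRC allografts 10B and 10C both left out, an alternative chosen after seeing the data, that of Twist2 was 0.0591 (log2 2.32). The other changes were of sign, in differences that were not called, and their cause was not tested. Zeb2 between EpiC allografts and cultures was −0.14 without genotype. Twist2 between Brca1hom and Brca1het allografts was −0.026 with 10B and 10C averaged and −0.59 without them. Between CYP19A1 and Brca1het allografts Twist2 was 0.0082 without medium in the model and Prrx1 was −0.012 without 10B and 10C. With 1 library left out at a time, log2 differences ran across 0 as follows. Between CRC and EpiC cultures Snai2 ran from −0.27 to 0.53. Between CRC and EpiC allografts Zeb1 ran from −0.23 to 0.64, Zeb2 from −0.29 to 0.64 and Prrx1 from −0.68 to 0.14. Zeb2 ran from −0.40 to 0.40 between EpiC allografts and cultures, and Snai2 from −0.26 to 1.07 in the difference of changes. Between Brca1hom and Brca1het allografts Snai2 ran from −0.73 to 0.0057, Twist1 from −0.20 to 0.53, Twist2 from −0.32 to 0.66 and Zeb1 from −0.00042 to 0.20. Between CYP19A1 and Brca1het allografts Twist2 ran from −0.37 to 0.23, Zeb2 from −0.053 to 0.68 and Prrx1 from −0.29 to 0.32. Snai1 ran from −1.04 to 0.67 between CRC cultures of cancers and the cancers. Between CRC and EpiC cultures of cancers Snai1 ran from −0.41 to 1.30, Snai2 from −1.03 to 0.62 and Twist2 from −0.56 to 0.85. With the cancer as a replicate block, 0 members were called in each of the 3 comparisons of cancers and cultures, as without the block. Where 1 library of a group was left, it was assumed to vary like the other groups. FPKM carry no read depth, so no counting interval can be given.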
